A study of Mus musculus with 16 samples.

Results

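The subject is the set of accessible chromatin sites that ATAC-seq peak lists place on mouse chromosome 8, read by p53 status. All peaks on chromosome 8 in the 16 lists were taken, except those in 1 Mb windows where the first backbone list has 5 or more peaks. This gave 37845 chromosome 8 peaks among 545274 peaks on chromosomes 1 to 19. Chromosome 8 was chosen by its share of peaks in p53-null against parental lists, so every value of that contrast below is a description and carries no test. Of the 45 windows left out, 9 were on chromosome 8; those nearest the limit were 71 to 72 Mb and 95 to 96 Mb with 5 peaks each, just inside it, and 83 to 84 Mb and 84 to 85 Mb with 4 each, just outside it.

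All cells came from a mouse Rx:GFP knock-in line, as embryonic stem cells (ESCs) or as embryoid bodies. The ESCs were kept in 2i+LIF, a medium that holds them in the naive state, and formed 6 groups of 2 lists: parental; the p53 knockout clones C9 and H9, whose label names no change at Wdr5; and Wdr5 and p53 double knockouts that carry a backbone plasmid, wild-type WDR5 (WDR5WT) or the S91K-Y191F mutant of WDR5. Embryoid bodies, grown by the SFEBq method toward neural and retinal tissue, were parental (day 4) or double knockout (the label names no day), with 2 lists each. All 4 had 5% KSR, a serum replacement, and 2% Matrigel at day 1. C9 and H9 are single clones, and the labels do not say how many clones the double knockouts stand for or whether replicates were separate cultures. The p53 contrast in embryoid bodies is therefore also a Wdr5 contrast, while in ESCs 6 of the 10 p53-null lists have wild-type WDR5.

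ATAC-seq marks open DNA by the sites where a transposase inserts, and a peak list holds the places where a caller found more insertions than in the surroundings. p53, encoded by Trp53, is a transcription factor that halts or kills cells under DNA damage and other stress. WDR5 is a scaffold subunit of the complexes that methylate lysine 4 of histone H3 at promoters. Extra copies of chromosome 8 are a known karyotype change of cultured mouse ESCs; copy number was not measured here, since peak lists carry neither read counts nor a karyotype. Nor can bulk lists tell more cells with an open site from a more open site in each cell.

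The promoters below show the p53-null and parental contrast at 4 single genes, with that of Zfp42 beside them as one that had a peak in all the lists compared. Tll1, an extracellular protease related to BMP1, and the predicted gene Gm51579 were the only 2 of 666 chromosome 8 promoter windows with a peak in at least 5 of 10 p53-null and neither parental ESC list, and in both double knockout and neither parental embryoid body list (1 of 18783 windows elsewhere did so). Sipa1l2, a synaptic GTPase regulator, and Irx3, an Iroquois homeobox factor of neural patterning, had such a p53-null-only peak in ESCs, but peaks in all 4 embryoid body lists. Zfp42 (Rex1), a marker of naive ESCs, had a promoter peak in every embryoid body list, in all 10 p53-null and in both parental ESC lists. By peaks within 1000 bp of either gene end, neither Tll1 nor Gm51579 was p53-null-only at both stages. At Tll1, both parental embryoid body lists and 1 parental ESC list had such a peak. Their calls above thus hold for the promoter windows alone. Gm51579 and Sipa1l2 were picked after their values were seen. Each line gives the 250 bases before the annotated start, 5′ to 3′ on the gene's strand (the minus strand for all 5), from RefSeq on GRCm38.p6 (mm10), with CpG dinucleotides in capitals. They span chr8:64206009-64206258 for Tll1, chr8:79639906-79640155 for Gm51579, chr8:125569864-125570113 for Sipa1l2, chr8:91801655-91801904 for Irx3 and chr8:43307010-43307259 for Zfp42.
Tll1: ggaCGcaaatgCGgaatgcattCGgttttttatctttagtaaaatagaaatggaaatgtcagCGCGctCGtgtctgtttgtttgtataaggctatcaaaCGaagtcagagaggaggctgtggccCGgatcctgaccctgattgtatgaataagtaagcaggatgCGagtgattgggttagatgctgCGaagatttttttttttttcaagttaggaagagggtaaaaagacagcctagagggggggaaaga
Gm51579: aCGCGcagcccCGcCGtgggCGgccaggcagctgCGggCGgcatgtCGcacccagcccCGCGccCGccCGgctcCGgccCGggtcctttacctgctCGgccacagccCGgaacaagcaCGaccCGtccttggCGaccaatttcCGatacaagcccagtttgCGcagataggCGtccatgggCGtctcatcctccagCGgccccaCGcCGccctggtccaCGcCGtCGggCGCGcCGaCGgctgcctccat
Sipa1l2: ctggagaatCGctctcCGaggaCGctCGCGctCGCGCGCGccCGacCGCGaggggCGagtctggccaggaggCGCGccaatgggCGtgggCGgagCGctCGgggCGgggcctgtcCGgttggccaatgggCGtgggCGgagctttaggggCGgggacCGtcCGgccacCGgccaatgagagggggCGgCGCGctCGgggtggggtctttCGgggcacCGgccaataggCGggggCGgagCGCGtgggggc
Irx3: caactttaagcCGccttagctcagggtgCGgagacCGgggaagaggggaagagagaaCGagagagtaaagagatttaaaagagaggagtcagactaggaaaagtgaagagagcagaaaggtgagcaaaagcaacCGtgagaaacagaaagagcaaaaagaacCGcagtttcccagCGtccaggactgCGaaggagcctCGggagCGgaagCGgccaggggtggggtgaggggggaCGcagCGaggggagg
Zfp42: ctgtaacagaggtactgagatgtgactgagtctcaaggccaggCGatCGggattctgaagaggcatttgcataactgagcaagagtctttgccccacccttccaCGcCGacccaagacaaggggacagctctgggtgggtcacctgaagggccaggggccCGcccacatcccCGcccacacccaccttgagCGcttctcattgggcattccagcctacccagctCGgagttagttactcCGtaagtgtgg

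The 5 promoters did not share a base composition. Tll1 held 10 CpG and 43.2% G+C, Zfp42 9 CpG and 58.4%, Irx3 13 CpG and 56% (shown by the sparse capitals), whereas Gm51579 held 33 CpG and 72.8% and Sipa1l2 37 CpG and 76.8%. The median was 12 CpG over the 666 chromosome 8 windows of the same length and 10 over all 19449 autosomal windows. Both strands were searched for the GC box GGGCGG, the CCAAT box, the TATA box TATAAA, the E-box CACGTG and the p53 half-site; the GC box and the E-box each contain a CpG. Sipa1l2 held 6 GC boxes and 4 CCAAT, Gm51579 held 4 GC boxes and 1 CCAAT, Zfp42 held 2 GC boxes and 1 CCAAT, and Tll1 held 1 CCAAT. Irx3 held none of the 5 motifs, and no printed promoter held a TATA box, an E-box or a p53 half-site. Over all 19449 windows, 43.5% held a GC box, 35.2% a CCAAT box, 11.8% a TATA box, 6.70% an E-box and 6.28% a p53 half-site. The motifs found are thus common ones, and a match is a match of letters only.

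The lists differed widely in length, which bears on every count below. Outside the windows left out, ESC lists held 464 to 31008 peaks on chromosomes 1 to 19 and embryoid body lists 73041 to 90306; depth is unknown. Of 8 ESC markers, 7 and 2 had an end peak (a peak within 1000 bp of a gene's end) in the parental ESC lists, 6 or 7 in each C9, H9 and WDR5WT list, 1 and 5 in the S91K-Y191F lists and 1 in each backbone list. Of 8 neuroectoderm and eye field markers, both parental embryoid body lists had 8 and both double knockout lists 6, while all 4 fibroblast markers had an end peak in every embryoid body list. Of the 8 ESC markers, both parental embryoid body lists had 8 and both double knockout lists 7. Of 5 primitive streak and mesoderm markers, all 4 embryoid body lists had 4. Marker counts therefore did not tell the cell types apart. The part of list length and cell makeup in the results was not tested. The C9, H9 and WDR5WT lists also form a set of their own in widest peak, with no parental list in it, so list set and genotype cannot be told apart where that set is compared with other ESC lists.

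In ESCs and in embryoid bodies, every p53-null list placed a larger share of its autosomal peaks on chromosome 8 than every parental list of the same stage. Parental ESC lists had 4.94% (1089 of 22049 peaks; exact Clopper-Pearson 95% interval 4.66 to 5.23) and 5.41% (219 of 4051; 4.73 to 6.15). Clone C9 had 9.08% and 9.17%, clone H9 8.39% and 8.37%, and WDR5WT 8.24% and 8.09%. The S91K-Y191F lists had 10.05% and 7.91%, and the backbone lists 14.0% (65 of 464; 10.98 to 17.5) and 12.6% (176 of 1394; 10.9 to 14.5). The 6 lists with wild-type WDR5 lay between 8.09% and 9.17%, whereas the 4 without it spread from 7.91% to 14.0% and their shortest lists were highest. Intervals cover the counting of peaks only.

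Parental embryoid body lists had 4.99% (4358 of 87407) and 5.03% (3677 of 73041) of their peaks on chromosome 8, and double knockout lists 7.19% (5423 of 75412) and 7.24% (6537 of 90306). The replicates lay close together and the genotypes did not overlap. The mean share was 7.21% ± 0.0336 against 5.01% ± 0.0341 (SD, n = 2 each), a ratio of 1.44. In ESCs it was 9.59% ± 2.09 (SD, n = 10) against 5.17% ± 0.330 (SD, n = 2), a ratio of 1.85, which was 1.65 for the lists with wild-type WDR5 and 2.16 for those without. The other 18 autosomes had ratios of 0.798 (chromosome 6) to 1.06 (chromosome 15) in ESCs and 0.889 (chromosome 19) to 1.05 (chromosome 3) in embryoid bodies. Chromosome 8 thus lay outside the range of all other autosomes at both stages, which is the property it was chosen for. At equal list length (the strongest 464 peaks) the ESC difference was 8.99 percentage points rather than 4.42, and in the upper 50% of the embryoid body peaks by the authors' p it was 1.42 rather than 2.20.

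**Figure D1:**
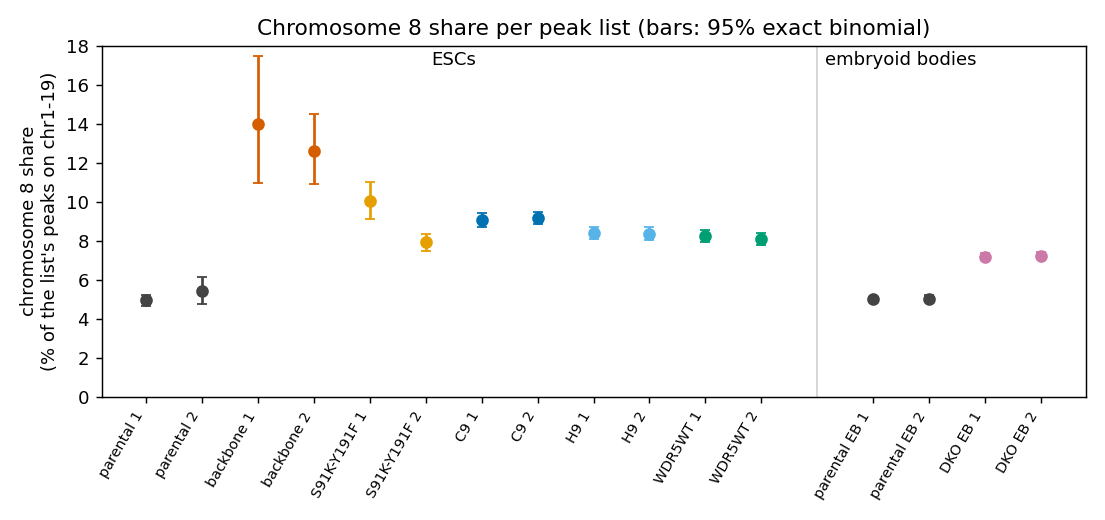
Share of each list's peaks on chromosomes 1 to 19 that lie on chromosome 8 (vertical axis, percent) for the 12 ESC lists (left) and 4 embryoid body lists (right); points are lists and bars 95% exact binomial intervals. Parental lists sit between 4.94% and 5.41% and all p53-null lists between 7.19% and 14.0%.

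The higher share ran along most of the chromosome rather than sitting at a few loci. Chromosome 8 was divided into 26 bins of 5 Mb, and each bin's peaks were taken as a percentage of the list's autosomal peaks. In ESCs the ratio of p53-null to parental mean shares was above 1 in 26 of 26 bins, from 1.40 to 3.63 with a median of 1.83. In 17 of the 26, every p53-null list was above every parental list (3.8% of all 500 autosomal bins were called this way, and 2 of the 474 bins elsewhere), and in none was every p53-null list below (2.4% of all bins). Without both backbone lists 25 of 26 bins were called (6% of all bins). The 17 bins became 4 of 21 tested at equal list length (3.32% of all bins), 6 in the upper 50% of each list (1.8% of all) and 8 with no window left out (1.80% of all). The highest ESC ratio was at 70 to 75 Mb, the bin with the most genes (113) and, after 3 of its windows were left out, few peaks: 0.156% of peaks against 0.0428%.

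In embryoid bodies 24 of 26 bins had a ratio above 1, from 0.970 to 3.16 with a median of 1.42. Both double knockout lists were above both parental lists in 22 of 26 (34% of all autosomal bins) and below in none (36.4% of all bins). The highest ratio was at 50 to 55 Mb, with means of 0.261% against 0.0826% of peaks, followed by 95 to 100 Mb (0.246% against 0.0904%) and 55 to 60 Mb (0.317% against 0.130%). At 10 to 15 Mb, 115 to 120 Mb and 120 to 125 Mb the ratio lay between 0.970 and 1.01, with means of 0.280% against 0.278%, 0.266% against 0.267% and 0.310% against 0.319%. The last 2 of these bins had ESC ratios of 2.43 and 2.95, which were 2.05 and 1.75 for the lists with wild-type WDR5. Over the 26 bins the ESC and embryoid body ratios had a Pearson r of -0.146 and a Spearman rho of -0.246, and for the ESC lists with wild-type WDR5 these were 0.183 and 0.181, given as a description, since bins of a list share its library.

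**Figure D2:**
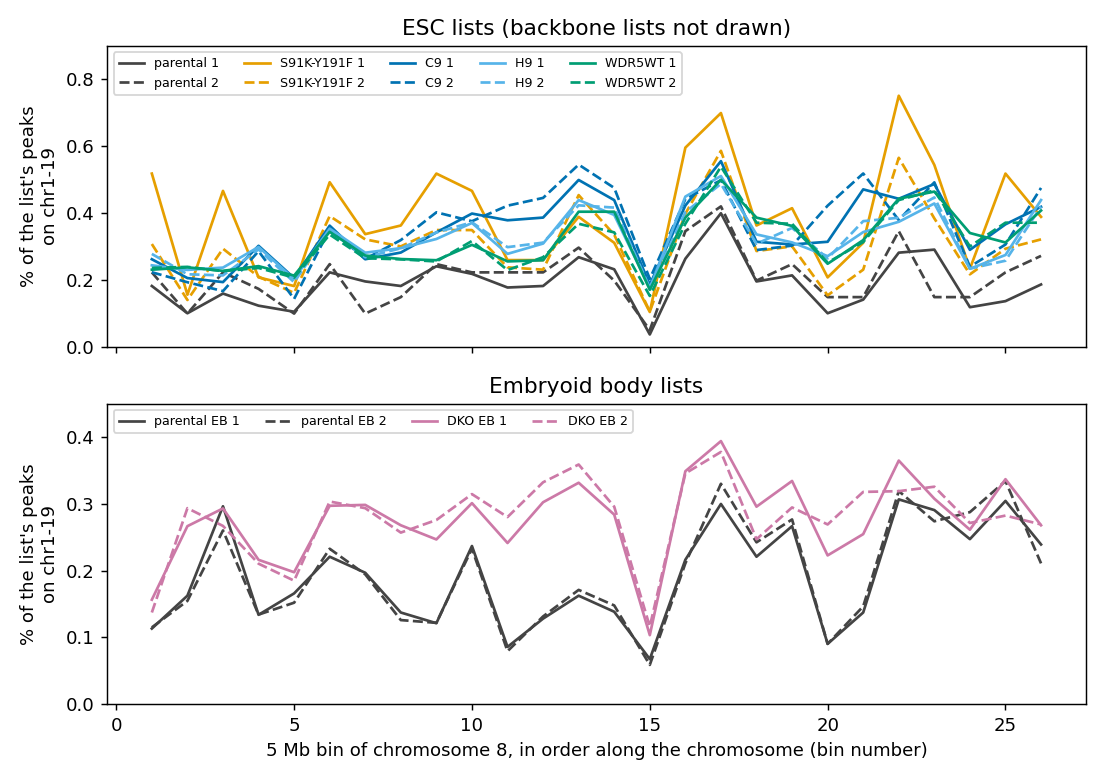
Peaks per 5 Mb bin as a percentage of the list's peaks on chromosomes 1 to 19 (vertical axis) along chromosome 8 (horizontal axis, bin 1 to 26), for 10 ESC lists (top; the 2 short backbone lists are not drawn) and 4 embryoid body lists (bottom). The double knockout lines lie above the parental lines in 22 of 26 bins and meet them at bins 3, 22, 24 and 25.

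In embryoid bodies the difference was larger in bins with few genes. In the 13 bins with 6 to 33 protein-coding genes, double knockout lists held 3.69% of their autosomal peaks and parental lists 2.03%, a ratio of 1.82. In the 13 bins with 35 to 113 genes the means were 3.52% and 2.98%, a ratio of 1.18. The number of genes per bin and the embryoid body ratio had r = -0.494 and rho = -0.651 over the 26 bins. In ESCs the same groups of bins had ratios of 1.78 and 1.93, with r = 0.539 and rho = 0.218 between gene number and ratio. With the ESC lists that have wild-type WDR5 alone, the ratios were 1.73 and 1.59, with r = 0.280 and rho = -0.169, so the order of the groups of bins in ESCs turned with the lists taken. Against all autosomal bins of up to 33 genes, chromosome 8 held 7.76% of such peaks in double knockout and 4.76% in parental embryoid bodies (ratio 1.63). Of peaks in bins with more genes it held 6.72% and 5.20% (ratio 1.29).

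**Figure D3:**
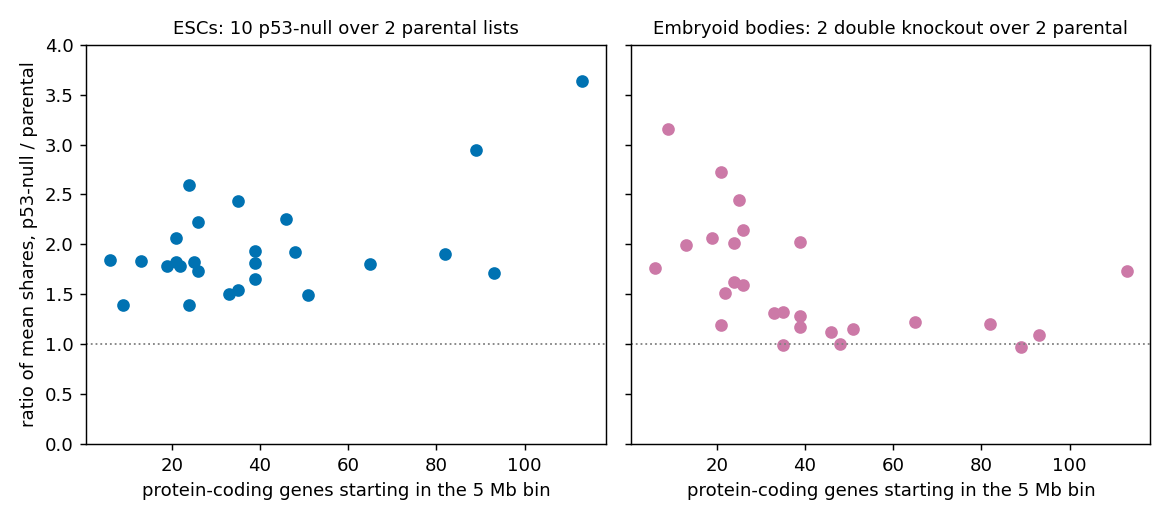
Ratio of mean p53-null to mean parental share (vertical axis) against the number of protein-coding genes that start in the bin (horizontal axis) for the 26 bins of chromosome 8, in ESCs (left) and embryoid bodies (right); the dotted line marks a ratio of 1. In embryoid bodies the ratios run from 3.16 in a bin of 9 genes to 0.970 in a bin of 89.

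The pattern by peak strength differed between ESCs and embryoid bodies, but their lists were ranked by different measures. Stage and measure therefore cannot be told apart here. Each list was ranked by the authors' signal (ESCs) or fold enrichment over local background (embryoid bodies) and divided into 5 equal groups. Among the weakest peaks of double knockout embryoid bodies 11.01% and 11.4% were on chromosome 8, against 5.39% and 5.61% in parental ones, a ratio of means of 2.03. The ratio was 1.58, 1.36 and 1.08 in the next 3 groups, and 1.05 among the strongest peaks, where the means were 4.92% and 4.67%. In ESCs the ratio was 1.97, 1.81, 1.79, 1.77 and 1.95 from the weakest to the strongest group. Ranked this way, the embryoid body ratio was highest among weak peaks and near 1 among the strongest. By the authors' p the picture was less sharp, since the upper 50% of embryoid body peaks kept a difference of 1.42 of the 2.20 percentage points.

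**Figure D4:**
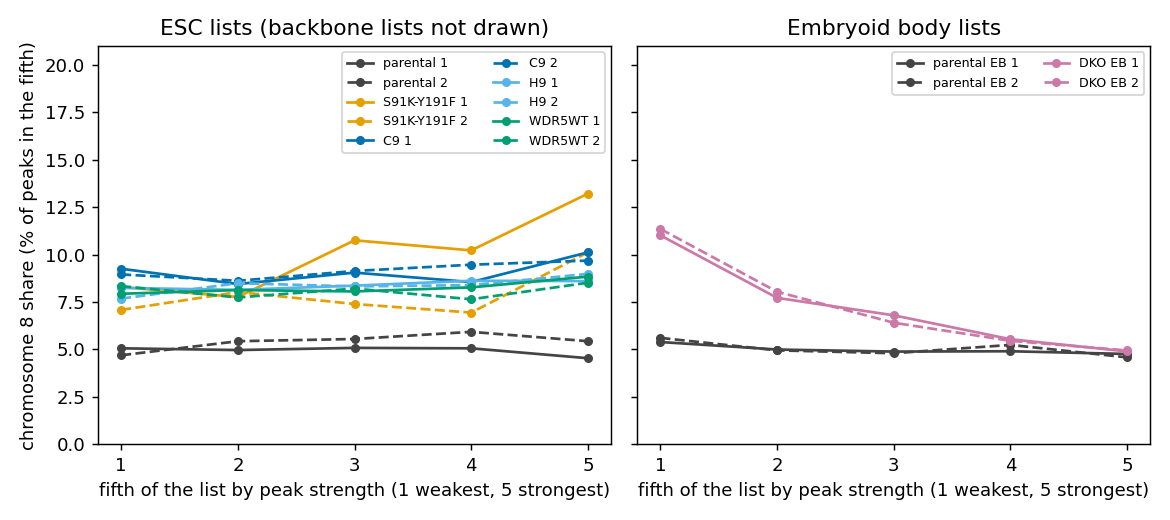
Chromosome 8 share (vertical axis, percent of the peaks in the group) in 5 equal groups of each list ranked by peak strength (horizontal axis, 1 weakest to 5 strongest), for ESC lists without backbone (left) and embryoid body lists (right); replicate 2 is dashed. Double knockout embryoid body lists fall from 11.01% and 11.4% toward the parental lists, while p53-null ESC lists stay above parental lists throughout.

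Sites found in every list allowed strength to be ranked at the same places. In embryoid bodies, 40790 autosomal regions had a peak in all 4 lists, 2229 of them on chromosome 8. Ranked by fold enrichment among the 40790, chromosome 8 regions had a median percentile of 44.7 and 45.03 in parental and 42.3 and 43.4 in double knockout lists. Ranked by the authors' −log10 p they stood at 46.4 and 45.1 in parental but 57.2 and 56.2 in double knockout lists. The measures therefore went in opposite directions between genotypes at the same regions. In ESCs, 12651 regions had a peak in the first parental list and all 6 lists with wild-type WDR5, 811 of them on chromosome 8. Their median signal percentile was 40.2 in the parental list, 66.5 and 66.1 in C9, 63.4 and 62.3 in H9, and 61.9 and 61.7 in WDR5WT, and the −log10 p gave 39.6 against 61.3 to 63.5. Over the 2076 regions found in all 10 lists other than backbone (175 on chromosome 8), the signal percentile was 33.8 and 42.6 in the parental lists and 59.8 to 71.1 in the p53-null lists.

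**Figure D5:**
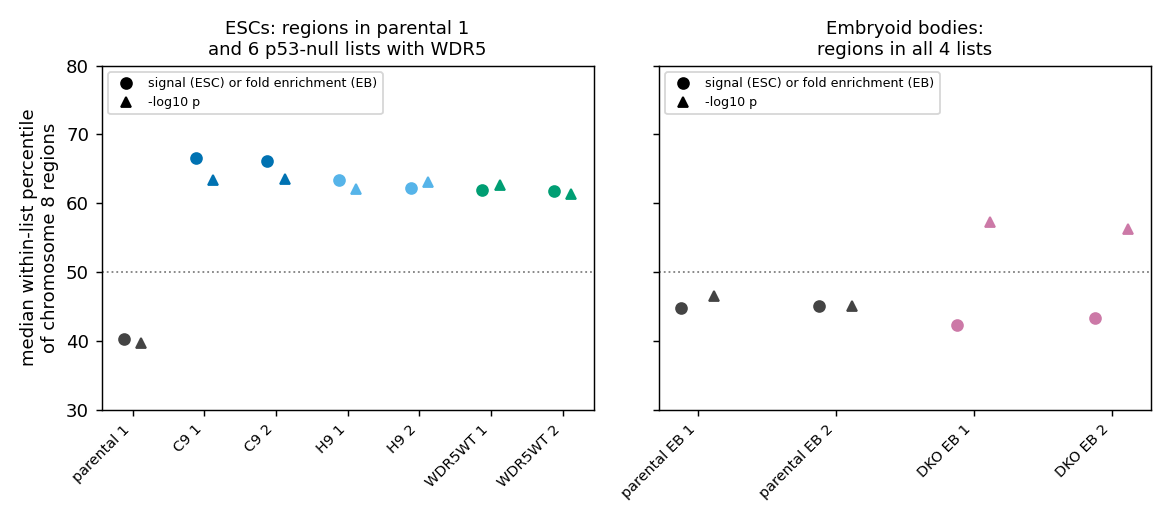
Median within-list percentile of chromosome 8 regions (vertical axis; the dotted line at 50 is the middle of the list) among regions found in every list shown, ranked by signal or fold enrichment (circles) and by −log10 p (triangles). In ESCs (left) the parental list is near 40 and the 6 p53-null lists are above 61; in embryoid bodies (right) the double knockout lists are above the parental lists by −log10 p and below them by fold enrichment.

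Ratios were lowest at gene ends both in embryoid bodies and in ESCs with wild-type WDR5. Chromosome 8 held 4.79% and 4.82% of the end peaks of double knockout embryoid bodies and 4.61% and 4.57% of those of parental ones, a ratio of means of 1.05. The ratio was 1.45 for peaks inside genes and 1.56 for peaks outside them (7.94% against 5.09%). In ESCs with wild-type WDR5 the ratios were 1.21 at gene ends, 1.60 inside genes and 2.05 outside them. In the 4 lists without it the order was different, 2.42 at gene ends, 2.32 inside and 1.84 outside. Of the 1043 protein-coding genes of chromosome 8, 77.4% and 76.0% had an end peak in parental embryoid bodies and 76.8% and 79.2% in double knockout ones. On the other autosomes these were 67.9% and 66.4% in parental and 65.7% and 67.4% in double knockout lists. The part of these shares in the ratios was not tested.

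Most double-knockout-only sites lay far from gene ends, on chromosome 8 and elsewhere. Peaks of the 4 lists were merged into 9646 chromosome 8 regions. Of these, 889 had a peak in both double knockout and neither parental list, which is 9.22% of the chromosome's regions (4.68% of all 145110 autosomal regions were called this way), and 187 had one in both parental lists alone (1.94%, against 4.27% of all). Chromosome 8 thus supplied 13.1% of all double-knockout-only regions and 3.02% of the parental-only ones, beside 5.46% of those found in all 4 lists. Of the 889, 2.47% lay within 1000 bp of a gene end and 62.9% lay outside genes, against 3.29% and 64.9% of double-knockout-only regions of the other autosomes. Their median distance to a gene end was 99.1 kb, against 59.0 kb on the other autosomes. Distances were also larger on chromosome 8 for regions found in all 4 lists (15.7 against 10.8 kb) and for the remaining regions (71.8 against 38.2 kb). They were weak sites, with median fold enrichments of 3.23 and 3.37 in the 2 double knockout lists, where chromosome 8 regions found in all 4 lists had 3.72 and 4.09. At gene ends, 11 of 1043 chromosome 8 genes had a peak in both double knockout lists alone (1.05%; 0.711% of all genes) and 8 in both parental lists alone (0.767%; 0.818% of all genes). Without the second double knockout list, regions absent from parental lists numbered 2255, and without the first 3073 (11.2% and 10.9% of all such autosomal regions). The parental-only count was 736 or 1004 without the first or the second parental list (4.05% and 3.95% of all). It was 379 without the second double knockout list (3.18% of all). In the upper 50% of each list the double-knockout-only and parental-only counts were 400 and 120 (10.4% and 3.19% of all such autosomal regions).

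Double-knockout-only regions were assigned to the gene with the nearest end, up to 100 kb away, and the 10 genes with the most had 5 to 8 each. Spock3, a secreted proteoglycan of the nervous system, had 8 such regions and no parental-only one; the strongest, at 62881921 to 62882434, had fold enrichments of 3.50 and 4.39. Unc5d, a netrin receptor in axon guidance, had 7 and 1. Slc10a2 (the ileal bile acid transporter), Zmat4 (a zinc finger gene), Sgcz (a sarcoglycan), Tusc3 (an oligosaccharyltransferase subunit), Tll1, Rasd2 (a striatal small GTPase) and Cdh8 (a neuronal cadherin) each had 5 and none, and Iqcm had 5 and 1. Of the 5 regions at Tll1, 1 was an end peak, at 64012299 to 64012845. It lay by the end of the gene opposite the promoter printed above. At Rasd2 the strongest region, 75249691 to 75249967, had fold enrichments of 4.78 and 5.11, and at Cdh8 the strongest, 99466284 to 99467335, had 4.03 and 5.05.

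The genes with the most parental-only regions were Myo16, an unconventional myosin of neurons, and Gins2, a subunit of the replicative helicase, with 4 each and no double-knockout-only region, and Cmip, a signalling adaptor, with 3 and none. Chd9, a chromatin remodeller, and Sipa1l2 had 3 of either kind. The parental-only sites were weak as well: those of Gins2 had fold enrichments of 2.11 to 3.08, and the strongest at Chd9, 90741419 to 90741791, 5.03 and 4.36. Parental-only sites were thus few per gene, and several lay beside double-knockout-only sites of the same gene.

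Gene groups were described over lists of chromosome 8 genes, each set beside all 1043 protein-coding genes of the chromosome, of which 228 (21.9%) had more double-knockout-only and 65 (6.23%) more parental-only regions. Of 16 genes listed as neuronal adhesion, synaptic and guidance genes, 10 had more double-knockout-only and 1 more parental-only regions (47 against 7 regions). The name is loose: Tusc3, Sgcz and Tll1, described otherwise above, are members, with 5 double-knockout-only regions each. Csmd1, a synaptic complement regulator, was among the 10, with 2 regions, the stronger at 15965856 to 15966415 with fold enrichments of 5.13 and 5.36. Spock3, Unc5d, Sgcz, Tusc3, Tll1 and Cdh8, already named for having the most such regions, are members of this list, which was chosen with earlier results of these data known. Its count is therefore no independent evidence, and nothing is read from it against the 21.9%. Several members are long genes (Csmd1 spans 1642848 bp, Sgcz 1143866 and Unc5d 572955), a property whose part was not tested. Of 24 ubiquitously expressed genes, 3 had more double-knockout-only regions and 1 more parental-only regions (4 against 1), Psmd7, a proteasome subunit, having 2 and the RNA-binding Elavl1 and the deubiquitinase Usp10 1 each.

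Of 30 developmental transcription factors, 13 had more double-knockout-only and 4 more parental-only regions (30 against 14). Zfp42 had 3 and none, of which the one at 43393096 to 43393316 had fold enrichments of 5.40 and 4.53. Hand2, a factor of heart and limb, had 3 and none, and Nr3c2, the mineralocorticoid receptor, 3 and 1. The Iroquois genes did not move together: Irx5 had 3 double-knockout-only regions, Irx6 1 and Irx3 none, while Irx3 had 2 parental-only regions, the stronger at 91765200 to 91765832 with fold enrichments of 6.07 and 4.55. Of 22 signalling genes, 8 had more double-knockout-only and 3 more parental-only regions (17 against 10). Hhip, a hedgehog inhibitor, had 4 and 2, Angpt2, a ligand of the endothelial Tie2 receptor, 2 of either kind and Gab1, a receptor adaptor, 2 and 1. Of 19 chromatin, replication and genome maintenance genes, 4 had more double-knockout-only and 1 more parental-only (9 against 3), among them Mcph1 and the helicase Wrn with 3 and 1 and the telomere protein Terf2ip with 2 and none.

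In ESCs the p53-null-only sites included promoters as well as distal places. Peaks of the 12 ESC lists were merged into 3955 chromosome 8 regions, and 955 of them (24.1%; 13.3% of all autosomal regions) had a peak in at least 5 of 10 p53-null lists and neither parental list. A peak in both parental lists and no p53-null list was found in 1 region (0.0907% of all). This asymmetry follows in part from the rule, which asks 5 of 10 lists on the one side and all lists on the other. The second parental list is also short. Chromosome 8 held 14.8% of all p53-null-only autosomal regions, beside 3955 of all 48497 merged ESC regions. Without the first parental list, 1625 of its regions met the rule, but these were only 9.17% of all regions that did. Where 3 of 10 lists sufficed, 1520 met it, 12.1% of all that did. Of the 955, 605 (63.4%) were in all 6 lists with wild-type WDR5, 278 (29.1%) in an S91K-Y191F list and 3 in a backbone list. Of p53-null-only regions on the other autosomes, 58.2% were in all 6 lists with wild-type WDR5 and 18.4% in an S91K-Y191F list. Gene ends made up 17.5% of the 955, and 52.3% lay outside genes.

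An end peak in at least 5 p53-null and neither parental ESC list was found at 183 of the 1043 chromosome 8 genes (17.5%; 6.77% of all genes), and the reverse, in both parental and no p53-null list, at none of them (0.00968% of all genes). The number of chromosome 8 genes with an end peak was 514 and 188 in the parental lists and 681 to 759 in the C9, H9 and WDR5WT lists. It was 328 and 568 in the S91K-Y191F lists and 67 and 185 in the backbone lists. Set against the other autosomes of the same list, 49.3% of chromosome 8 genes had an end peak against 41.5% elsewhere in the first parental list, a ratio of 1.19, and the second had 1.42. C9 had ratios of 1.52 and 1.53, H9 1.42 and 1.40, and WDR5WT 1.42 and 1.31, so H9 and WDR5WT did not stand clear of the second parental list in this ratio. S91K-Y191F had 2.47 and 1.61 and backbone 6.18 and 3.96.

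Promoter windows of 300 bases, matched for 545 of the 1043 genes, were also read for their sequence. Of 666 windows on chromosome 8, 116 had a peak in at least 5 of 10 p53-null and neither parental ESC list (17.4%; 7.06% of all autosomal windows). Their median CpG count was 22, against 25 in the 117 windows with a peak in both parental lists and 16 over all 666. An E-box was present in 18.97% of the 116, in 8.86% of all chromosome 8 windows and in 8.51% of p53-null-only windows elsewhere. The p53 half-site was present in 1.72% of the 116, in 6.61% of all chromosome 8 windows and in 7.15% of p53-null-only windows elsewhere. The GC box had 63.8%, 50.6% and 68.8% in the same 3 sets, the CCAAT box 30.2%, 40.1% and 33.4%, and the TATA box 9.48%, 12.3% and 6.84%. In embryoid bodies, 91.4% of the 116 had a peak in all 4 lists, as Sipa1l2 and Irx3 did, beside 66.4% of all chromosome 8 windows and 90.2% of p53-null-only windows elsewhere. These shares were computed after the windows were known and carry no test.

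Single genes show the ESC pattern. Unc5d, Zfp42, Isx (an intestinal homeobox factor) and Cdh5 (VE-cadherin of endothelium) had 7 p53-null-only regions each. Nr3c2, N4bp1 (a ribonuclease) and the neuronal Cntnap4 had 6 each, and Csmd1, the atypical cadherin Fat1 and the actin-associated Palld had 5 each. At Nr3c2 the region 76918834 to 76920171, inside the gene, had a peak in 8 of 10 p53-null lists, with signals of 1247 and 1566 in C9, 1150 and 1378 in H9, 1252 and 883 in WDR5WT and 212 and 598 in S91K-Y191F, and none in backbone or parental lists. At the Irx3 promoter printed above, the region 91800635 to 91802661 had a peak in 7 of 10, with signals of 858 and 567 in C9, 973 and 966 in H9, 1691 and 1587 in WDR5WT, and 245 in the second S91K-Y191F list. The Sipa1l2 promoter region, 125569272 to 125570814, had a peak in 8 of 10, with signals of 662 and 866 in C9, 784 and 1330 in H9, 1064 and 1838 in WDR5WT and 218 and 601 in S91K-Y191F. The backbone lists had no peak at any of these 3 sites, and the first S91K-Y191F list none at Irx3. Signals are the authors' value of each peak, of unstated scaling, and are not compared between lists.

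Among the gene groups, 14 of the 16 genes in the loosely named neuronal list had at least 1 p53-null-only ESC region (43 regions). So did 18 of 30 developmental transcription factors (55), 9 of 22 signalling genes (17), 7 of 19 chromatin and replication genes (9) and 9 of 24 ubiquitously expressed genes (9). Over all 1043 genes of the chromosome, 354 (33.9%) had 1 or more. The neuronal list, and Zfp42 among the transcription factors, were chosen with earlier results of these data known. Those counts are therefore no independent evidence, and nothing is read from them against the 33.9%. The ubiquitously expressed group stood near the chromosome as a whole (37.5%). None of the 1043 genes, listed or not, had a region found only in both parental lists, so the groups could not differ in this.

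Regions that were p53-null-only at both stages were counted next. Of the 889 double-knockout-only embryoid body regions, 87 (9.79%) overlapped a p53-null-only ESC region, which is 9.11% of those 955, and 327 (36.8%) overlapped any ESC region. The 87 are 26.6% of those 327, beside 24.1% of all chromosome 8 ESC regions that were p53-null-only. On the other autosomes 261 of 5897 double-knockout-only regions (4.43%) overlapped a p53-null-only ESC region, which is 16.3% of those with any ESC region, beside 12.4% of ESC regions there. Of the 955 ESC regions, 665 (69.6%) overlapped a region with a peak in a parental embryoid body list and 496 (51.9%) a region found in all 4 embryoid body lists. Most sites called p53-null-only in ESCs thus coincided with a parental peak at the later stage. The same share over other ESC regions was not counted, and the embryoid body lists are longer than the ESC lists. Nothing particular to these sites is therefore read from it. Gm15881, a predicted gene, was the only protein-coding gene of the chromosome with an end peak that was p53-null-only at both stages. It had an end peak in both double knockout and neither parental embryoid body list (58699882 to 58701050, fold enrichments 3.01 and 2.78), and in 5 of 10 p53-null and neither parental ESC list.

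Within the p53-null ESCs, the presence of wild-type WDR5 was compared. The choice of chromosome 8 did not use this contrast, but it did use these lists' shares, and the windows left out removed 374 of the 439 chromosome 8 peaks of the first backbone list, so the tests are not independent of the rule. It took the 6 C9, H9 and WDR5WT lists against the 4 backbone and S91K-Y191F lists, by two-sided exact permutation tests over lists (210 arrangements, smallest p 0.00476) with Benjamini-Hochberg adjustment over 4 measures. The chromosome 8 share was 8.56% ± 0.454 (SD, n = 6) with and 11.1% ± 2.71 (SD, n = 4) without, a difference of -2.59 percentage points (exact p = 0.0381, adjusted p = 0.0508). Since the rule used these shares and took its windows from a list without WDR5, no conclusion is drawn from the share's p-values, here or below. Without both backbone lists the difference was -0.421 (exact p = 0.607, adjusted p = 0.607), without the second S91K-Y191F list -3.67 (exact permutation, adjusted p = 0.0159), and with no window left out -11.0 (exact permutation, adjusted p = 0.00952). Median width of chromosome 8 peaks was 675 ± 17.6 bp with and 583.5 ± 48.5 bp without, every list with WDR5 lying higher (exact p = 0.00476, adjusted p = 0.00952). The share of chromosome 8 peaks at gene ends was 23.1% ± 1.66 with and 48.8% ± 8.60 without, every list with WDR5 lying lower (exact p = 0.00476, adjusted p = 0.00952). The median signal percentile was 51.2 ± 0.255 and 50.5 ± 9.64, a difference of 0.69 (exact p = 0.933, adjusted p = 0.933). It was -3.77 without both backbone lists (exact permutation, adjusted p = 0.0476) and -4.07 without the first of them (adjusted p = 0.0159, exact permutation).

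List length moved with both measures whose adjusted p was below 0.05, width and gene end share. At equal list length the gene end difference had the opposite sign, 12.7 percentage points (exact permutation, adjusted p = 0.105). The width difference was 848.5 bp at equal list length (exact permutation, adjusted p = 0.019) and 58.7 bp without both backbone lists (exact permutation, adjusted p = 0.0476). Peaks of the other autosomes in the same lists also moved, with a median width of 617 to 664 bp with WDR5 and 464 to 568 bp without. Against them, chromosome 8 peaks were wider in all 10 p53-null ESC lists, by 12 to 46 bp with WDR5 and 49 to 69.5 bp without, and narrower in the parental ESC lists, by 6 and 13 bp. In embryoid bodies they were narrower by 6.5 and 5 bp in parental and by 14 and 15 bp in double knockout lists. The lists with wild-type WDR5 are also the set with the narrower widest peak, so that set and the genotype cannot be told apart.

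Among the lists with wild-type WDR5, clone C9 had the highest chromosome 8 share, 9.13% ± 0.0623, followed by clone H9, 8.38% ± 0.0147, and WDR5WT, 8.17% ± 0.111 (SD, n = 2 each). The lists of the 3 groups did not overlap, but an exact test of 2 lists against 2 cannot reach 0.05, so no test was made. In bins of up to 33 genes the shares were 8.85% and 9.09% in C9, 8.19% and 8.07% in H9 and 7.60% and 7.74% in WDR5WT. In bins with more genes they were 9.34% and 9.27%, 8.61% and 8.71%, and 8.91% and 8.41%, where H9 and WDR5WT overlapped.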

How the data were processed

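ATAC-seq peak lists of 12 ESC and 4 embryoid body libraries were analysed. The submitters' processing notes name Bowtie2 2.3.5, SAMtools, Genrich 0.6, MACS2 2.1.2 and build mm10, and assign no step to any of them. Each peak of the deposited ESC lists has a score, a signal (its scaling is not stated) and a −log10 p; their caller is not given in the sources used here. The deposited embryoid body lists give a score, a ratio (fold enrichment over local background) and −log10 p and q values; the authors removed blacklisted regions from them, per the file names. No list holds read counts, so depth is unknown. Replicates may be technical: p-values measure only the spread between these lists.

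Peaks on chromosomes 1 to 19 outside the 45 dense windows were counted, merged where they overlapped by at least 1 bp, and given to whichever protein-coding gene ended nearest, up to 100 kb away. The gene table (RefSeq, GRCm38.p6) was used without strand, so an end peak lies within 1000 bp of either gene end. Bins needed 10 peaks over the lists of a stage. Of 1043 chromosome 8 genes, 545 matched a RefSeq promoter window. Scripts used Python 3.11.15, pandas 2.3.3 and scipy 1.17.1, and were tested on simulated data.

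Chromosome 8, the gene lists and the windows were chosen with earlier results of these data known. Named genes were those with the most regions found in only 1 group (10 double-knockout-only or p53-null-only, 5 parental-only), genes with such an end peak at both stages, up to 3 per list, and Zfp42 and the Iroquois genes; exceptions are marked. Alternatives were list length, peak strength, the denominator, bin size, overlap, the windows, the number of lists required, a replicate block and leaving out lists.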

Additional observations from a re-analysis of the deposited data

How the results depend on the processing

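The direction of the chromosome 8 share difference was kept under every alternative run at both stages. In ESCs (4.42 percentage points) it was 8.99 at equal list length, 5.98 with only the p53-null lists that lack wild-type WDR5, and 3.49 without both backbone lists (added after seeing the data). In embryoid bodies (2.20) it was 1.63 at equal list length, 1.42 in the upper 50% by p, 2.26 with no window left out, 2.16 with X and Y in the denominator, 2.46 without chromosomes 6 and 11 and 2.06 as a share of base pairs. Leaving out each list gave 3.93 to 4.66 and 2.18 to 2.23. The 17 ESC bins became 4 at equal list length, 6 in the upper 50% and 8 with no window left out (3.32%, 1.8% and 1.80% of all autosomal bins). Leaving out lists gave 17 to 24 (3.8% to 7.2% of all). The 22 embryoid body bins became 50 of 63 bins of 2 Mb, with 1 called lower (32.0% of all such autosomal bins were called higher). All 13 of the 10 Mb bins were called higher (32.4% of all), and leaving out lists gave 22 to 24 (37.6% to 43% of all).

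The 889 double-knockout-only and 187 parental-only regions became 400 and 120 in the upper 50%, and 1100 to 3073 and 261 to 1004 on leaving out lists, where fewer lists have to agree. Chromosome 8's part of all double-knockout-only regions, 13.1%, became 10.4% in the upper 50% and 10.7% to 12.2% on leaving out lists. Its part of the parental-only ones, 3.02%, became 3.19% and 3.17% to 4.05%. The 955 p53-null-only ESC regions became 1520 when 3 of 10 lists sufficed and 691 to 1625 on leaving out lists.

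Within p53-null ESCs, the share difference was -11.0 with no window left out (exact permutation, adjusted p = 0.00952), -2.59 by base pairs (adjusted p = 0.0381), and -3.67 to -1.64 on leaving out lists (adjusted p 0.0159 to 0.127; the lowest p was without the second S91K-Y191F list). The signal percentile difference was -3.77 without both backbone lists and -4.07 to 2.79 on leaving out lists, and the gene end difference 12.7 at equal list length and -29.9 to -23.2 on leaving out lists. Width (91.9 bp) gave 848.5 bp at equal list length, 58.7 bp without both backbone lists and 68.75 to 103 bp on leaving out lists. The cause of these changes was not tested.

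Replicate numbers did not pair the lists: deviations in chromosome shares correlated at -0.540 to 0.457 over 15 ESC pairs and -0.782 in embryoid bodies. With a replicate block the share p was 0.05 (exact permutation, adjusted p = 0.0667), and width and gene end share had adjusted p = 0.02 (exact permutation). The embryoid body share difference under the block is 2.20 by arithmetic. The rule likewise fixes the 889 and 187 regions, as labelled and with numbers crossed. Neither could have changed, so neither is a check. Depth is unknown, so its limit cannot be stated.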

Other observations

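End peaks of embryoid bodies named few regulators. The 11 chromosome 8 genes with an end peak in both double knockout lists alone were Cd209c, Tpte, Gm15881, Tmem59l, Niban3, Cdh5, Cmtm2b, Tle7, Ctrb1, Slc38a8 and Trim67. The 8 with an end peak in both parental lists alone were F7, F10, Atp4b, Angpt2, Tex24, Il34, Wfdc1 and Cbfa2t3. The 11 are 1.05% of the chromosome's genes, beside 0.711% of all genes, and the 8 are 0.767%, beside 0.818%. No theme is read from either list. These genes were named after their values were seen.

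The windows left out of chromosome 8 did not behave alike. At 20 to 21 Mb the backbone, S91K-Y191F and parental ESC lists held 193 to 259 peaks, the C9, H9 and WDR5WT lists 29 to 34 and the embryoid body lists 4 to 8. At 55 to 56 Mb parental embryoid bodies held 10 and 9 peaks and double knockout ones 32 and 44.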
